A study of Mus musculus with 15 samples.

Results

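The 8 genes described here encode 5 subunits of the GABA-A receptor (Gabra2, Gabra3, Gabra5, Gabrb2, and Gabrg1), the scaffold protein gephyrin (Gphn), and the chloride cotransporters NKCC1 (Slc12a2) and KCC2 (Slc12a5). They were chosen by name as genes of inhibitory signaling and are 8 of the 19475 genes with deposited values. RNA-Seq was carried out on brains of 15 C57BL/6J mouse embryos at E16.5, with 5 WT, 5 heterozygous (Tbr1+/K228E), and 5 homozygous (Tbr1K228E/K228E) embryos, and each genotype had 3 females and 2 males. The knock-in allele replaces a lysine of the T-box transcription factor TBR1 with glutamate and lies in exon 1 of Tbr1, and its selection cassette had been removed with a protamine-Cre. The sample labels give the tissue as brain, the title of the series gives whole brain, and the text of the study calls it forebrain. Values are normalized read counts, that is, estimated counts per gene divided by a size factor per embryo.

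GABA-A receptors are chloride channels made of 5 subunits, usually alpha, beta, and gamma subunits together, and the alpha subunit sets much of the kinetics and location of the channel. Whether their opening inhibits or depolarizes a neuron depends on intracellular chloride. NKCC1 brings chloride into the cell, KCC2 extrudes it, and the rise of KCC2 during brain development is known to turn GABA from a depolarizing into an inhibitory transmitter. Gephyrin holds GABA-A and glycine receptors at inhibitory synapses.

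None of the 8 genes passed the threshold in any comparison of genotypes, and for each gene the range of the embryos within a genotype exceeded the difference between the genotype means. Slc12a5 ranged from 4189.8 to 8802 over the 15 embryos, whereas the genotype means were 6612 ± 1560 (WT), 5913 ± 1076 (Tbr1+/K228E), and 6631 ± 1523 (Tbr1K228E/K228E; SD, n = 5 each). The differences between embryos were shared: Slc12a5, Gabra3, and Gphn were high and low in the same embryos, and they were high where marker genes of the thalamus were high. Gabra2 did not follow this order, and Slc12a2 ran opposite to Gphn and Slc12a5. The relation of Slc12a5, Gabra3, and Gphn to the thalamus markers was weaker among the 6 males than among the 9 females. The mean log2 value of these markers also varied less among the males (SD 0.140) than among the females (SD 0.380). The difference between the sexes in this relation was not tested.

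As a check of the labels, Tbr1 was measured first. It was 3517, 4122, 4871, 2097, and 3079 in WT replicates 1 to 5, 4738, 8543, 6337, 6743, and 4985 in Tbr1+/K228E replicates 1 to 5, and 11530, 7148, 16015, 10671, and 11467 in Tbr1K228E/K228E replicates 1 to 5. Every Tbr1K228E/K228E embryo exceeded every WT embryo, and 1 Tbr1+/K228E embryo lay below the highest WT value. Replicate 2 of Tbr1K228E/K228E lay below replicate 2 of Tbr1+/K228E, so Tbr1 alone does not set the labels of the mutant genotypes apart. The normalized read counts of an embryo summed to between 30.5 and 31.8 megareads, and because they are already scaled these sums do not show the sequencing depth. Markers of neurons were present, with all 8 genes above a mean of 5 in each genotype. Hox genes, which mark hindbrain and spinal cord, summed to between 8.20 and 3276 in WT, 4.87 and 3961 in Tbr1+/K228E, and 7.77 and 576 in Tbr1K228E/K228E embryos, so that some embryos carried RNA from the hindbrain or spinal cord and others hardly any. No difference of the 9 marker lists between genotypes passed the test (27 two-sided exact permutation tests, smallest p = 0.143, adjusted p = 0.918). The widest were those of Hox genes, at -1.15 (Tbr1+/K228E minus WT) and -1.29 (Tbr1K228E/K228E minus WT) in mean log2 value, and of meninges, at -1.22 (Tbr1K228E/K228E minus Tbr1+/K228E), with exact permutation p of 0.468, 0.31, and 0.31.

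Levels can be compared between genes only per length, and they were divided here by the length of the merged exons of each gene, which is not the length of the transcript in use. In WT embryos the order, as normalized read counts per kb, was Slc12a5 (888 ± 209), Gabra3 (740 ± 148), Gphn (633 ± 63.1), Gabra5 (396 ± 75.5), Gabrb2 (324 ± 47.4), Slc12a2 (213 ± 8.03), Gabra2 (128 ± 52.8), and Gabrg1 (71.4 ± 19.2; SD, n = 5 each). The ranges of WT embryos overlapped between Slc12a5 and Gabra3, Gabra3 and Gphn, Gabra5 and Gabrb2, Slc12a2 and Gabra2, and Gabra2 and Gabrg1. Within each embryo, however, each of the 8 genes was above the next, in 15 of 15 embryos for all 7 neighboring pairs.

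The mutant genotypes had the same order of levels per kb. In Tbr1+/K228E embryos they were 794 ± 144 for Slc12a5, 700.1 ± 93.2 for Gabra3, 600.2 ± 65.7 for Gphn, 392 ± 35.7 for Gabra5, 303 ± 41.4 for Gabrb2, 219 ± 20.4 for Slc12a2, 137 ± 30.2 for Gabra2, and 68.5 ± 4.95 for Gabrg1, and in Tbr1K228E/K228E embryos 890.4 ± 205 for Slc12a5, 748 ± 77.2 for Gabra3, 630.0 ± 41.5 for Gphn, 415 ± 57.7 for Gabra5, 348 ± 35.7 for Gabrb2, 211 ± 14.6 for Slc12a2, 148 ± 34.4 for Gabra2, and 72.6 ± 11 for Gabrg1 (SD, n = 5 each). In all genotypes Gabra3 was the highest and Gabra2 the lowest of the 3 alpha subunit genes among them.

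**Figure D1:**
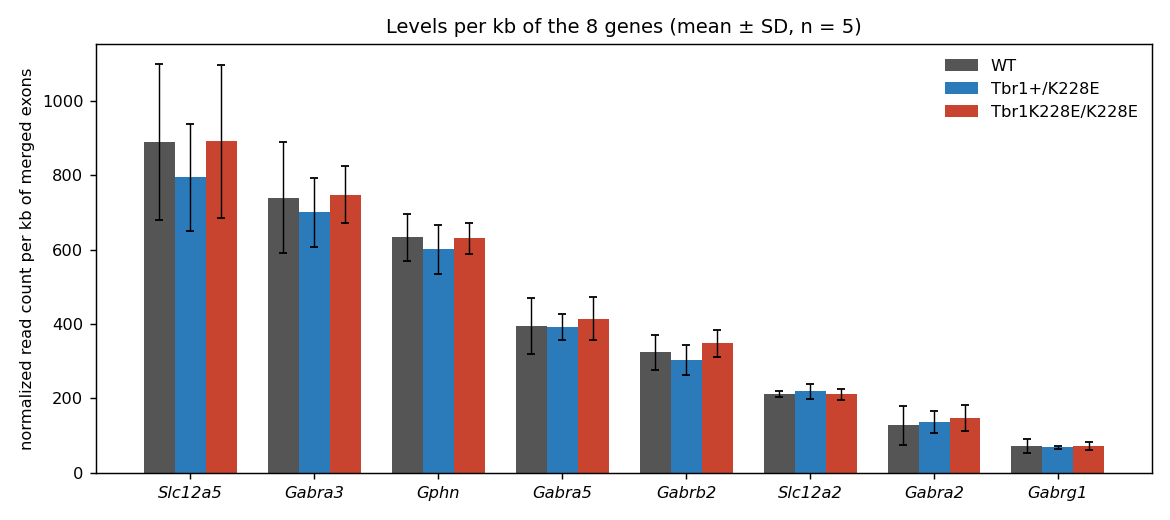
Normalized read count per kb of merged exons (y axis, from 0) of the 8 genes (x axis, in the order of the WT means), with 1 bar per genotype and error bars of 1 SD (n = 5 embryos). Slc12a5, Gabra3, and Gphn have the tallest bars and Gabrg1 the lowest in all genotypes.

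The gene that names the mutants encodes a T-box factor, so the promoters were searched for a T-box core. Promoter windows of RefSeq on GRCm38.p6, reaching from 250 bases before to 50 bases after a transcription start, were found for 7 of the 8 genes (11 windows). The letters AGGTGT, or ACACCT for the opposite strand, occurred in 1 window each of Slc12a5, Gabra5, and Gabrb2. Of all 32851 windows, 13.7% hold these letters, and 15.7% of the 27025 genes with a promoter window have them. The matches are shown with 30 bases on either side, 5′ to 3′ on the strand of the gene and with the match in capitals, to show which of the genes carry it and where. They lie 210, 202, and 130 bases before the start, respectively.
Slc12a5: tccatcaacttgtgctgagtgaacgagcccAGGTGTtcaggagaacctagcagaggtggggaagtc
Gabra5: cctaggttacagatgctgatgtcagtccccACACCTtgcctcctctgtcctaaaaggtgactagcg
Gabrb2: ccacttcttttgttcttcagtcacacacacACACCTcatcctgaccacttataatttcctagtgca

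These stretches are chr2:164960606-164960671 on the plus strand for Slc12a5, chr7:57510226-57510291 on the minus strand for Gabra5, and chr11:42420280-42420345 on the plus strand for Gabrb2. By GENCODE M21, the stretches of Slc12a5 and Gabra5 lie upstream of the gene, and that of Gabrb2 lies within the gene outside its exons. A match of 6 letters is a description and not a binding site, and these 3 genes are described with the others in the following comparisons.

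Among the alpha subunits, Gabra3 (ENSMUSG00000031343, chrX:72432681-72656848, minus strand) is a subunit typical of the embryonic brain. It was 2719, 2389, 2425, 3751, and 3229.6 in WT replicates 1 to 5, 2868, 2129, 2724, 3049, and 2965 in Tbr1+/K228E replicates 1 to 5, and 2755, 3361, 2637, 3134, and 2779 in Tbr1K228E/K228E replicates 1 to 5. WT embryos held the highest and the second lowest value, and the genotypes overlapped. Log2 fold changes against WT were -0.07 for Tbr1+/K228E and 0.03 for Tbr1K228E/K228E mice, with a standard error of 0.12 for both.

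Gabra5 (ENSMUSG00000055078, chr7:57407672-57510059, minus strand), a subunit best known for receptors outside the synapse that carry tonic inhibition, showed the smallest difference of the 8 genes between Tbr1+/K228E and WT mice. Its normalized read count was 1052, 973, 1029, 1487.5, and 1339.5 in WT replicates 1 to 5, 1293, 1097, 1182, 1228.5, and 1024.5 in Tbr1+/K228E replicates 1 to 5, and 1094, 1112, 1373, 1462, and 1125 in Tbr1K228E/K228E replicates 1 to 5. Both the lowest and the highest value belonged to WT embryos. The means of WT and Tbr1+/K228E mice were 1176 ± 225 and 1165 ± 106 (SD, n = 5 each). The fitted difference of the mean log2 values, which is not the ratio of these means, was 0.0013 with a 95% interval of -0.25 to 0.25. For Tbr1K228E/K228E mice it was 0.08, with an interval of -0.18 to 0.33.

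Gabra2 (ENSMUSG00000000560, chr5:70957597-71095849, minus strand), a synaptic alpha subunit of forebrain neurons, had the widest spread. It was 644, 753, 955, 868, and 1669 in WT replicates 1 to 5, 744, 1006, 1300.3, 931, and 1251.5 in Tbr1+/K228E replicates 1 to 5, and 834, 1057, 1178, 1035, and 1545 in Tbr1K228E/K228E replicates 1 to 5. WT replicate 5 was the highest of all 15 embryos and stood well above the other WT embryos, the first of which was the lowest of all. The means were 978 ± 404, 1047 ± 231, and 1130 ± 263 (SD, n = 5 each) in WT, Tbr1+/K228E, and Tbr1K228E/K228E mice, and the log2 fold changes of the mutants against WT, 0.15 and 0.26, had intervals of -0.33 to 0.64 and -0.22 to 0.75. Changes of up to 1.55-fold and 1.68-fold therefore lie within the 95% intervals for this gene. These estimates moved with single WT embryos: without WT replicate 1 they were 0.022 and 0.13, and without WT replicate 5 they were 0.36 and 0.47.

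Gabrb2 (ENSMUSG00000007653, chr11:42419757-42629028, plus strand) encodes a beta subunit, which contributes to the GABA binding site. Its values were 1795, 1798, 1961, 2468, and 2283 in WT replicates 1 to 5, 1805, 1599.8, 1883, 2299, and 2053 in Tbr1+/K228E replicates 1 to 5, and 1919, 2377, 2165, 2495, and 2105 in Tbr1K228E/K228E replicates 1 to 5. The Tbr1K228E/K228E embryos were high and the Tbr1+/K228E embryos were low, with overlap. Between these genotypes the difference in log2 was 0.20 (standard error 0.11), with the smallest unadjusted p of the 8 genes in any comparison (0.078, limma). The adjusted p was 0.996 in limma with Benjamini-Hochberg correction, and the two-sided exact permutation p was 0.103. With sex as a covariate in the fit, the difference was also 0.20 with a smaller standard error (0.08; 95% interval 0.04 to 0.37), at an unadjusted p of 0.018 and an adjusted p of 0.993 (limma).

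Gabrg1 (ENSMUSG00000001260, chr5:70751047-70842617, minus strand) encodes a gamma subunit that is part of a minority of GABA-A receptors, and it is the neighbor of Gabra2 on chromosome 5. It was 453, 456, 459.9, 781, and 659 in WT replicates 1 to 5, 598, 496, 519.81, 528, and 554 in Tbr1+/K228E replicates 1 to 5, and 452, 668, 567, 642, and 529 in Tbr1K228E/K228E replicates 1 to 5. The 3 WT females lay together below nearly all other embryos and the 2 WT males were the highest and the third highest of all 15. Log2 fold changes were -0.02 in Tbr1+/K228E and 0.05 in Tbr1K228E/K228E relative to WT mice (standard error 0.15 for both).

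Gphn (ENSMUSG00000047454, chr12:78226379-78684772, plus strand) was 2323, 2258, 2118, 2747, and 2428 in WT replicates 1 to 5, 2462, 1839.7, 2226, 2315, and 2407 in Tbr1+/K228E replicates 1 to 5, and 2325, 2539, 2158, 2494, and 2293 in Tbr1K228E/K228E replicates 1 to 5. The values of Gphn overlapped between all genotypes, with replicate 2 of Tbr1+/K228E lowest and replicate 4 of WT highest, as for Gabra3 and Slc12a5. Relative to WT mice, the 95% interval of the fold change reached from 0.840 to 1.07 in Tbr1+/K228E and from 0.884 to 1.12 in Tbr1K228E/K228E mice.

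Slc12a2 (ENSMUSG00000024597, chr18:57878678-57946821, plus strand), which encodes the chloride importer NKCC1, was the steadiest of the 8 genes. It was 2395.5, 2261, 2306, 2228, and 2434 in WT replicates 1 to 5, 2147, 2738, 2445, 2275, and 2350.3 in Tbr1+/K228E replicates 1 to 5, and 2227, 2177, 2476, 2171, and 2483 in Tbr1K228E/K228E replicates 1 to 5. Its means of 2325 ± 87.7 in WT, 2391 ± 222 in Tbr1+/K228E, and 2307 ± 159 in Tbr1K228E/K228E mice (SD, n = 5 each) left intervals of the fold change relative to WT mice of 0.937 to 1.12 and 0.905 to 1.08. Tbr1+/K228E replicate 2 was the highest of all embryos for this gene and the lowest for Slc12a5.

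Slc12a5 (ENSMUSG00000017740, chr2:164960802-164999731, plus strand), which encodes the neuronal chloride exporter KCC2, was 6141.5, 5219.9, 5282, 8802, and 7616 in WT replicates 1 to 5, 7003, 4189.8, 5661, 6272.5, and 6440.2 in Tbr1+/K228E replicates 1 to 5, and 5644.5, 8355, 5226, 8218, and 5712 in Tbr1K228E/K228E replicates 1 to 5. The Tbr1K228E/K228E embryos fell apart into a pair of high and 3 low values with none between them, and the WT embryos spanned nearly the same range. Against WT, Tbr1+/K228E mice had a log2 fold change of -0.15 (95% interval -0.53 to 0.23) and Tbr1K228E/K228E mice one of 0.01 (-0.37 to 0.38).

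**Figure D2:**
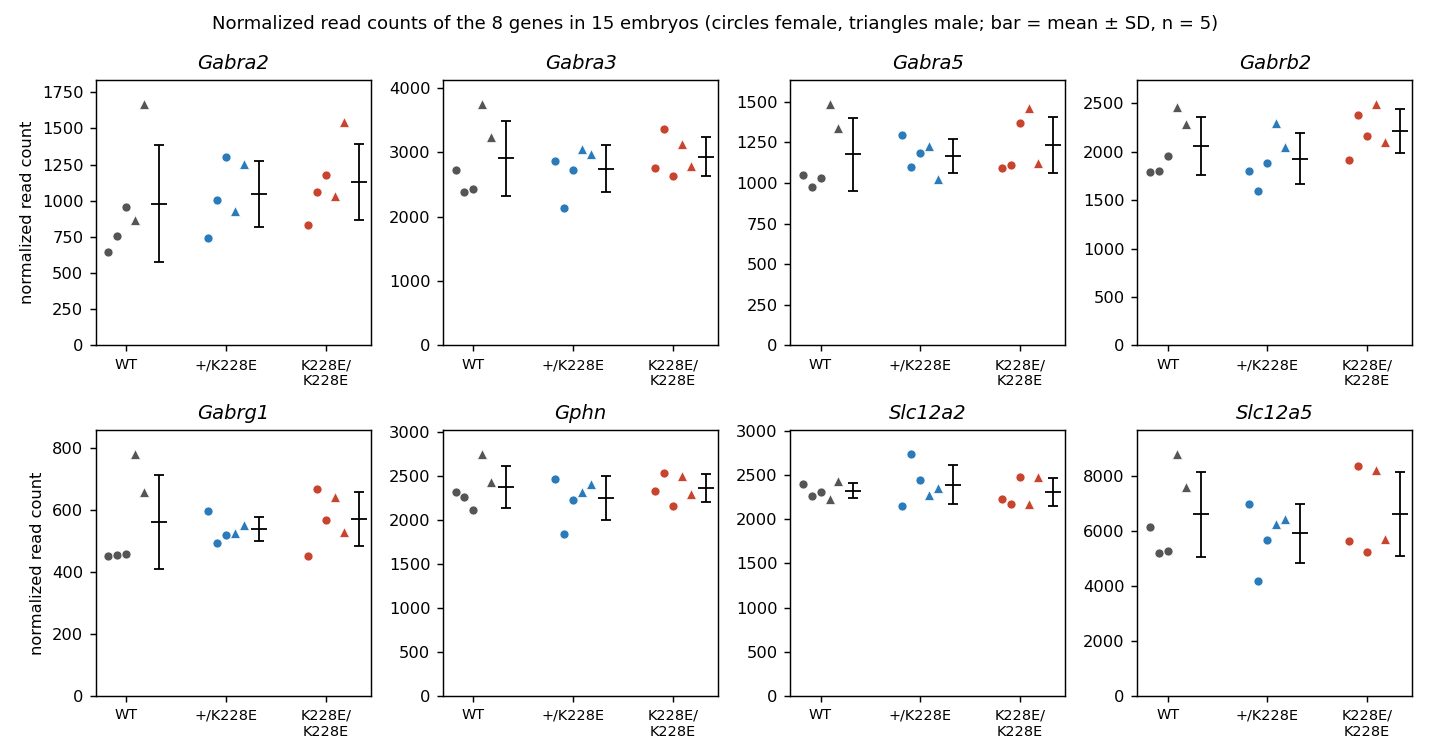
Normalized read counts (y axis, from 0) of the 8 genes in each of the 15 embryos by genotype (x axis), with circles for females, triangles for males, and a bar at the mean ± SD (n = 5). The genotypes overlap in all 8 panels, and the spread is widest relative to the mean for Gabra2 and narrowest for Slc12a2.

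Over the 8 genes, 0 passed an adjusted p of 0.05 in each of the 3 comparisons (limma with Benjamini-Hochberg correction over 16507 genes). Of all tested genes, 0% were called between Tbr1+/K228E and WT, 0.127% between Tbr1K228E/K228E and WT, and 0.0788% between Tbr1K228E/K228E and Tbr1+/K228E mice, and the count of 0 among 8 genes is to be read against these low shares. At an unadjusted p under 0.05, 0 of the 8 genes were called in each comparison, against 1.79%, 3.23%, and 3.3% of all genes. Gabrb2 between the mutant genotypes was below that level in the fit with sex as a covariate, as given above. No gene of the 8 had genotypes without overlap, against 0.26%, 0.594%, and 0.878% of all genes. The smallest of the 24 two-sided exact permutation p values was the 0.103 of Gabrb2, where 5 against 5 embryos allow a p as low as 0.00794.

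Relative to WT mice, 3 of the 8 genes had a higher and 5 a lower mean log2 value in Tbr1+/K228E mice, and 6 had a higher and 2 a lower one in Tbr1K228E/K228E mice. The median log2 fold change of the 8 was -0.05 and 0.04, beside medians of all tested genes of -0.0021 and -0.0023. Between the mutant genotypes, 7 of the 8 were higher in Tbr1K228E/K228E mice with a median of 0.09, beside 0.00042 for all tested genes. These 8 values share their embryos and, as given below, move together among them, and none of them passed on its own. A p that misses the threshold does not show that levels were equal, and the intervals give the sizes that remain possible.

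**Figure D3:**
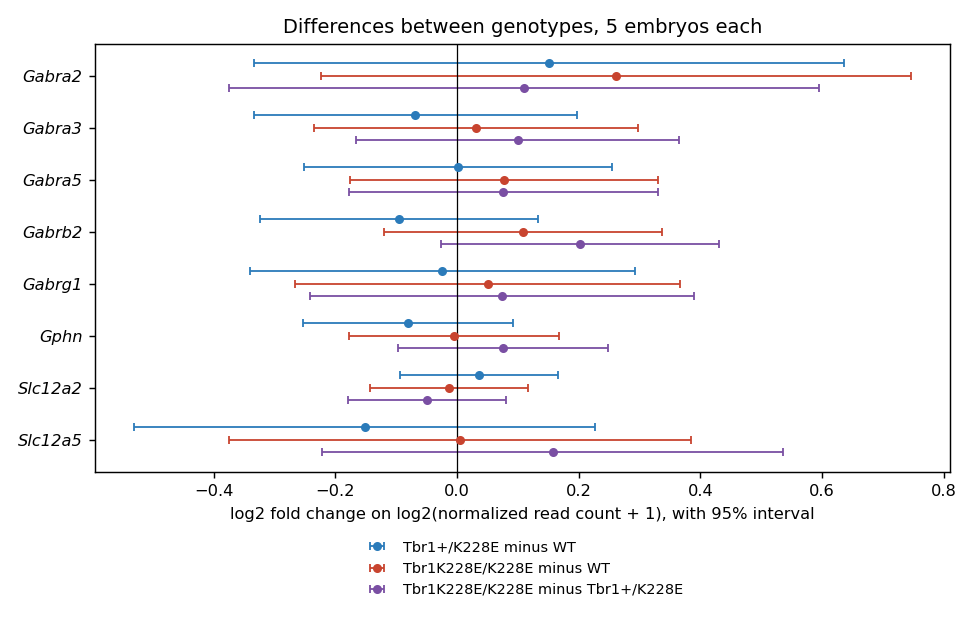
Log2 fold change (x axis) of each of the 8 genes (y axis) between genotypes with 5 embryos each, where points are limma estimates and bars are 95% intervals. All 24 intervals of this fit, which has no covariate, include 0, and they are widest for Gabra2 and Slc12a5 and narrowest for Slc12a2.

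The ratio of Slc12a5 to Slc12a2 was compared as a measure of exporter relative to importer transcript within the same embryo. It is a ratio of normalized read counts that are not per length, so it is compared between embryos only. It was 2.56, 2.31, 2.29, 3.95, and 3.13 in WT replicates 1 to 5, 3.26, 1.53, 2.32, 2.76, and 2.74 in Tbr1+/K228E replicates 1 to 5, and 2.53, 3.84, 2.11, 3.78, and 2.30 in Tbr1K228E/K228E replicates 1 to 5. Tbr1+/K228E replicate 2 was the lowest and WT replicate 4 the highest, and the genotypes overlapped. On the log2 scale it was 1.48 ± 0.335 in WT, 1.29 ± 0.416 in Tbr1+/K228E, and 1.496 ± 0.407 in Tbr1K228E/K228E mice (SD, n = 5 each). The difference from WT mice was -0.19 (standard error 0.239) for Tbr1+/K228E and 0.02 (standard error 0.236) for Tbr1K228E/K228E mice, and the two-sided exact permutation test gave p = 0.492 and p = 0.952 (adjusted over 3 comparisons, 0.738 and 0.952). Between the mutant genotypes the difference was 0.21 (standard error 0.260; exact permutation p = 0.484, adjusted 0.738).

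The 8 genes differed in how much they varied among embryos of the same genotype. The pooled SD of the log2 values within genotypes was 0.403 for Gabra2, 0.315 for Slc12a5, 0.256 for Gabrg1, 0.218 for Gabra3, 0.206 for Gabra5, 0.186 for Gabrb2, 0.138 for Gphn, and 0.0998 for Slc12a2. Among 13542 genes whose mean reached 50, the median SD was 0.123, and Gabra2 stood at the 93.3 and Slc12a5 at the 88.2 percentile. Slc12a2, at the 35.8 percentile, was the one gene of the 8 below the median.

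This variation was shared by most of the genes. Across the 15 embryos, log2 values of Slc12a5 correlated with those of Gabra3 (r = 0.944), Gphn (r = 0.934), Gabrg1 (r = 0.816), and Gabrb2 (r = 0.777), and Gabra3 correlated with Gphn (r = 0.922). These are descriptions over embryos of 3 genotypes, and after the mean of each genotype was removed the first pair of values became 0.944 and 0.930. Slc12a2 ran opposite to Gphn (r = -0.756) and Slc12a5 (r = -0.673). Gabra2 stood apart, with r between -0.059 and 0.426 to each of the other 7 genes, although it lies beside Gabrg1 (r = 0.309).

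**Figure D4:**
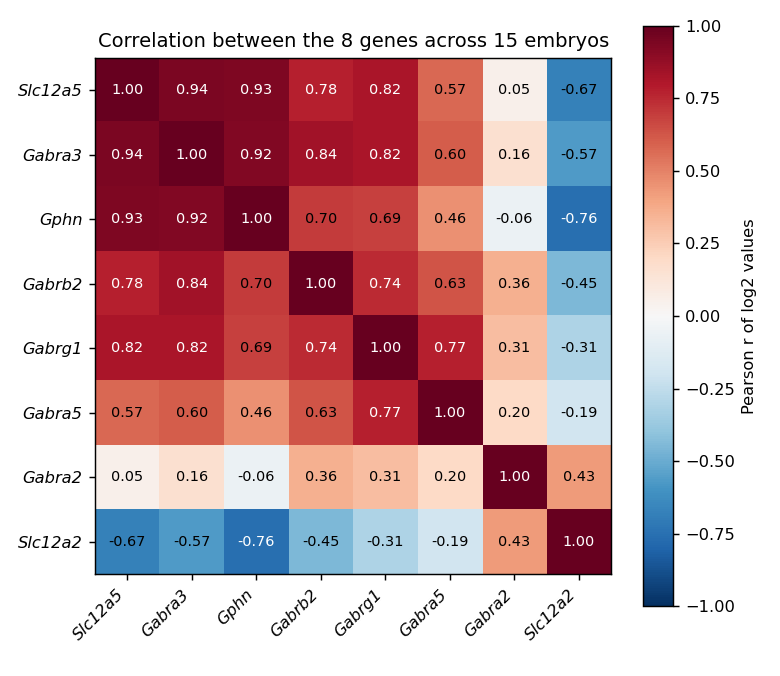
Pearson correlation (color scale and printed values) of the log2 values of each pair of the 8 genes (both axes) over the 15 embryos. Slc12a5, Gabra3, and Gphn form a block with r of at least 0.92, Slc12a2 is negative to all but Gabra2, and Gabra2 lies between -0.059 and 0.426 with the others.

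The genes whose pattern over the embryos was most like that of a member were found among the same 13542 genes by Pearson r over 15 embryos. For Slc12a5 they were Gprasp1 (r = 0.991), Snhg11 (r = 0.983), and Cadm3 (r = 0.976), for Gabra3 Enpp5 (0.990), Nt5dc3 (0.977), and Rims3 (0.975), and for Gphn Rcan2 (0.980), Creg2 (0.979), and Magee1 (0.978). Gabrb2 was most like Nrcam (0.959), Tnks (0.951), and Scn1a (0.949), Gabrg1 like Cdkl2 (0.933) and Pcdh15 (0.930), and Gabra5 like Lrfn2 (0.925), B4galt6 (0.916), and Timp2 (0.909). Rims3 is a protein of the presynaptic active zone, and Scn1a a sodium channel. The closest genes to Slc12a2 were Arhgdib (0.886), Otud4 (0.874), and Rbm39 (0.834), and to Gabra2 Zfp182 (0.826), AW209491 (0.826), and 2210408I21Rik (0.819).

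Some of the marker genes of brain regions and cell types varied with the same order of embryos. In bulk samples, fewer cells of a type and less RNA per cell cannot be told apart. A score was formed for each of 9 marker lists as the mean log2 value of its genes, and 81 relations (8 genes and the cotransporter ratio) were tested with 100000 permutations and adjusted together. Slc12a5 rose with the thalamus score (Tcf7l2, Gbx2, Lhx9, Rora, Ntng1, and Slc17a6), with r = 0.798 (permutation p = 7e-05, adjusted 0.00108) and rho = 0.857 (permutation p = 7e-05, adjusted 0.00189). Without the 2 embryos farthest from the median score, r was 0.716. Gabra3 (r = 0.835, rho = 0.850) and Gphn (r = 0.837, rho = 0.807) gave like values, with adjusted permutation p values of 0.00108 and 0.0025 for r and 0.00253 and 0.00318 for rho, and r of 0.722 and 0.709 without 2 embryos. Split by sex, r to the thalamus score was 0.87 for Slc12a5, 0.887 for Gabra3, and 0.886 for Gphn among 9 females. Among 6 males it was 0.327, 0.475, and 0.359, respectively. The thalamus score had an SD of 0.380 among the females and 0.140 among the males. The difference in r between the sexes was not tested.

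The cotransporter ratio also rose with the thalamus score (r = 0.805, rho = 0.807), with adjusted permutation p values of 0.00207 and 0.00318 and r of 0.689 without 2 embryos. The ratio contains Slc12a5, which varied more within genotypes than Slc12a2 (SD 0.315 against 0.0998), so this largely repeats the relation of Slc12a5. Slc12a2 fell with the score at r = -0.619 (adjusted permutation p = 0.0489), and r was -0.366 without 2 embryos. Its rho of -0.418 did not pass (adjusted permutation p = 0.211). Within sexes, r of the ratio to the thalamus score was 0.883 among 9 females and 0.276 among 6 males. Tbr1+/K228E replicate 2, which had the lowest ratio, also had the lowest thalamus score of all embryos (9.78).

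With the score of radial glia, the stem cells of the embryonic brain (Pax6, Sox2, Hes1, Hes5, Nes, Vim, Fabp7, and Slc1a3), it was Gabrb2 and Gabrg1 that had the lowest r. For Gabrb2 r was -0.743 and rho -0.786 (adjusted permutation p = 0.00706 and 0.00467), and for Gabrg1 they were -0.710 and -0.836 (adjusted permutation p = 0.0117 and 0.00253), with r of -0.757 and -0.632 without 2 embryos. Slc12a5 (r = -0.620) and Gabra3 (r = -0.612) also fell (adjusted permutation p = 0.0379 and 0.041), with r of -0.456 and -0.491 without 2 embryos, whereas Gphn, at r = -0.377, did not pass (adjusted permutation p = 0.259).

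The general neuron score correlated with Slc12a5 at r = 0.684 (rho = 0.532, permutation p = 0.00469 and 0.0438, adjusted 0.0158 and 0.0933). Without 2 embryos r was 0.340, so that part of this relation rests on those embryos. Leaving out the farthest scores also narrows their range. Gphn (r = 0.791), Slc12a2 (r = -0.662), and the cotransporter ratio (r = 0.723) passed for both r and rho. Their adjusted permutation p values were 0.00501, 0.0252, and 0.0105 for r and 0.0178, 0.0316, and 0.0387 for rho. Without 2 embryos, their r was 0.43, -0.498, and 0.419. Gabra3 and Gabra5 passed for r only, and Gabra2, Gabrb2, and Gabrg1 for neither. Whether the makeup of the dissected tissue accounts for the variation of these genes was not tested.

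Gabra2 was low in embryos with high Hox genes. Over the 15 embryos r was -0.717 and rho -0.814 to the Hox score (permutation p = 0.00257 and 0.00043, adjusted 0.0104 and 0.00317), and r was -0.769 without the 2 embryos farthest from the median score. The embryos were also set apart at a score of 2, which was chosen after the scores had been seen. In 6 embryos with a score of 2.59 to 6.81, Gabra2 was between 644 and 1057, with a median of 794. In the other 9 embryos, with scores of 0.183 to 1.23, it was between 931 and 1669, with a median of 1178. The 6 embryos are 3 WT, 1 Tbr1+/K228E, and 2 Tbr1K228E/K228E embryos, and 1 of them is male, against 5 of the other 9. Among the 6 and among the 9 embryos, r was -0.371 and -0.345. Slc12a2 also ran opposite to the Hox score, with rho = -0.789 (adjusted permutation p = 0.004) and r = -0.580 (adjusted permutation p = 0.0584). With the Hox score as a covariate in the fit, the log2 fold change of Gabra2 against WT went from 0.15 to 0.01 (95% interval -0.37 to 0.38) for Tbr1+/K228E and from 0.26 to 0.10 (-0.28 to 0.48) for Tbr1K228E/K228E mice (limma). Whether RNA from the hindbrain or spinal cord accounts for the levels of Gabra2 was not tested.

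**Figure D5:**
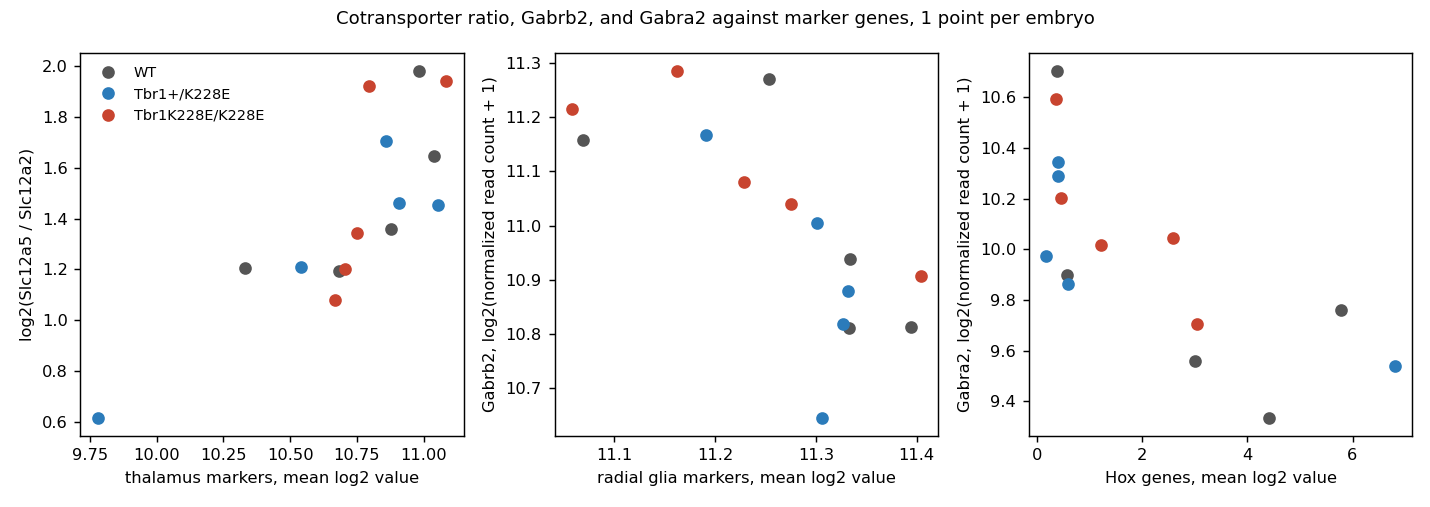
The log2 ratio of Slc12a5 to Slc12a2 against the mean log2 value of thalamus markers (left), the log2 value of Gabrb2 against that of radial glia markers (middle), and the log2 value of Gabra2 against that of Hox genes (right), with 1 point per embryo colored by genotype. The ratio rises from left to right in the first panel (r = 0.805), Gabrb2 falls in the second (r = -0.743), Gabra2 has a normalized read count of at most 1057 in embryos with a Hox score above 2, and genotypes are mixed along all axes.

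With the thalamus score as a covariate in the fit, which was added after these relations had been seen, the standard error of Slc12a5 relative to WT mice fell from 0.18 to 0.12 in Tbr1+/K228E mice and the log2 fold change was -0.04 (95% interval -0.29 to 0.21). In Tbr1K228E/K228E mice it was -0.01 (95% interval -0.25 to 0.24). For Gabra3 the corresponding values were 0.01 (-0.15 to 0.17) and 0.02 (-0.14 to 0.18), and for Gphn -0.03 (-0.14 to 0.08) and -0.01 (-0.12 to 0.10). None of the 8 genes passed the threshold in this fit (limma).

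The sexes were compared over all genotypes, with 6 males and 9 females. Of the 8 genes 7 were higher in males, as were 50.4% of all tested genes, and for 6 of these the mean of the males was higher within each of the 3 genotypes. Gabrb2 averaged 2284 ± 181.1 (SD, n = 6) in males and 1923 ± 228.5 (SD, n = 9) in females, with a log2 difference of 0.25 (standard error 0.06; limma, unadjusted p = 0.0013, adjusted p = 0.410). For Gabra3, which is X-linked, the log2 difference was 0.24, for Slc12a5 0.30, and for Gabrg1 0.24, with unadjusted p of 0.012, 0.037, and 0.043 and adjusted p of 0.410, 0.433, and 0.445 (limma). These are 4 of the 8 genes with an unadjusted p under 0.05, against 11% of all tested genes, and members that move together are not independent of each other. No gene of the 8 passed the adjusted threshold, which 13 genes of the whole table (0.0788%) passed. The thalamus score was 10.9 ± 0.140 (SD, n = 6) in males and 10.6 ± 0.380 (SD, n = 9) in females (two-sided exact permutation p = 0.0821, adjusted over 9 lists 0.428), and its part in the difference between sexes was not tested. No difference of a genotype effect between the sexes passed the threshold (limma interaction, smallest adjusted p of the 8 genes 0.734).

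Other genes of the pathway were followed in 8 lists with 70 genes, of which 66 were tested. In Tbr1+/K228E relative to WT mice, 0 of 66 passed and 0 had an unadjusted p under 0.05. In Tbr1K228E/K228E relative to WT mice, 1 of 66 passed, which rose, and 3 had an unadjusted p under 0.05 (limma with Benjamini-Hochberg correction). Between the mutant genotypes 0 of 66 passed and 2 had an unadjusted p under 0.05. Of all tested genes, 0%, 0.127%, and 0.0788% passed in these comparisons, in the same order. An unadjusted p under 0.05 was found for 1.79%, 3.23%, and 3.3% of all tested genes (limma). The counts of the pathway genes are to be read against these shares.

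The gene that passed was Slc4a10 (chr2:62046462-62326730, plus strand), a sodium-driven chloride bicarbonate exchanger of neurons, which lies downstream of Tbr1 (chr2:61802930-61814114, plus strand), the mutated gene, on the same chromosome. It was 1844, 1466, 1324.5, 2178, and 1813 in WT replicates 1 to 5, 1837, 1804, 1700.2, 1689, and 1688 in Tbr1+/K228E replicates 1 to 5, and 2153.5, 2911, 3071, 2764, and 2772.5 in Tbr1K228E/K228E replicates 1 to 5. All Tbr1K228E/K228E embryos were above all Tbr1+/K228E embryos, and 1 of them was below the highest WT embryo. The means were 1725 ± 337, 1744 ± 71.3, and 2734 ± 348 (SD, n = 5 each), and Tbr1K228E/K228E mice exceeded WT mice by 0.68 on the log2 scale (standard error 0.12; limma, Benjamini-Hochberg adjusted p = 0.0318). They exceeded Tbr1+/K228E mice by 0.64 (limma, Benjamini-Hochberg adjusted p = 0.0614). The call relative to WT mice was made in 2 of 10 fits that left out an embryo, namely those without WT replicate 4 or Tbr1K228E/K228E replicate 1. It was lost without each of the other 8 embryos, with log2 fold changes between 0.59 and 0.77 and adjusted p values between 0.0103 and 0.117 over the 10 fits (limma with Benjamini-Hochberg correction).

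The remaining pathway lists had no call. Among other GABA-A receptor subunits, 11 of 14 were tested, with a median log2 fold change of -0.09 in Tbr1+/K228E and 0.04 in Tbr1K228E/K228E relative to WT mice. The 15 genes of the inhibitory postsynapse and receptor trafficking lay between -0.04 and 0.19 in Tbr1K228E/K228E relative to WT mice, with 0.01 for Nlgn2, an adhesion molecule of inhibitory synapses, and 0.04 for Lhfpl4, which assembles GABA-A receptors with it. Of the 5 glycine receptor subunits, Glra2, the fetal alpha subunit, was 2647 ± 300 in WT and 2939 ± 177 in Tbr1K228E/K228E mice (SD, n = 5), with a log2 fold change of 0.16 (limma, unadjusted p = 0.044, adjusted p = 1.0).

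For GABA itself, 9 genes of synthesis, transport, and breakdown had 0 calls. Gad1, which makes GABA from glutamate, had a log2 fold change of -0.02 in Tbr1+/K228E and 0.04 in Tbr1K228E/K228E relative to WT mice. The GABA-B receptor subunits Gabbr1 and Gabbr2 had 0.04 and -0.13 in Tbr1K228E/K228E mice. Of the other cation-chloride cotransporters, 6 of 7 were tested, with a median of -0.05 in Tbr1K228E/K228E relative to WT mice, and Slc12a9 had -0.13. Of the 7 kinases and regulators that act on these cotransporters, Wnk1 and Wnk2 had -0.06 and 0.0015 relative to WT mice in Tbr1K228E/K228E mice, and Wnk4, which was named after its values were seen, had -0.95 (257 ± 115 in WT and 136 ± 80.3 in Tbr1K228E/K228E mice, SD, n = 5; limma, unadjusted p = 0.029, adjusted p = 1.0). The chloride channels and exchangers Clcn3 and Clcn4 had 0.01 and 0.03.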

How the data were processed

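RNA was sequenced from 15 embryonic brains (TruSeq RNA Sample Prep Kit v2, paired-end). The authors estimated transcript abundance with Salmon 0.11.2 on GRCm38 with a correction for GC bias. It was summarized per gene with tximport and scaled with size factors of DESeq2 1.22.2 in R 3.5.3. The deposited values are thus a normalized signal, not whole reads, so no count model was fitted, no counting interval is given, and depth is not known from the values. Of 19475 genes, 19452 were paired with a symbol.

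Genotype, sex, and replicate number came from the sample labels, which do not state whether embryos shared a litter. For differences between groups, P-values weigh the difference against the spread between these embryos, which were treated as independent. limma 3.58.1 in R 4.3.3 (functions lmFit and eBayes, trended) was applied to log2(value + 1), with all 15 embryos in 1 fit, a mean of at least 5 (16507 genes), Benjamini-Hochberg correction over all tested genes, and a threshold of 0.05. A fold change on this scale understates changes of genes with low values. Single values were compared with two-sided exact permutation tests. The procedure was tested on simulated data.

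The 8 genes, the pathway lists, and the marker lists were chosen with earlier results of these data known. Of each pathway list, the 2 genes with the highest mean, and genes that passed or did not overlap between genotypes at an unadjusted p under 0.01, were named, and some of these genes, and 3 of the 9 marker lists, are not reported here. Insyn2a was held under its older symbol. Positions are from GENCODE M21 and promoters from RefSeq (GRCm38.p6), where Slc12a2 was not matched. As alternatives, the pseudocount was set to 0.1 or 10, the filter was dropped or raised to 50, and other fits used upper-quartile or quantile normalization, sex, replicate number, and Hox, meningeal, and thalamus scores as terms, robust eBayes, a fit of 2 genotypes alone, an empirical null, and leaving out each embryo.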

Additional observations from a re-analysis of the deposited data

How the results depend on the processing

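None of the 8 genes passed the threshold in 576 alternative fits over genes, comparisons, and settings (smallest adjusted p = 0.904, limma with Benjamini-Hochberg correction). The direction of a log2 fold change turned in 42 of these fits, in which the value of the first fit was at most 0.11 in size. Outside of leaving out an embryo, Slc12a5 in Tbr1K228E/K228E relative to WT mice turned to -0.0049 with quantile normalization and -0.0077 with the thalamus score, and Gphn to 0.038 with the Hox and 0.0013 with the meningeal score. In Tbr1+/K228E relative to WT mice, Gabrg1 turned to 0.0094 with the Hox and 0.031 with the thalamus score, and Gabra3 to 0.010 with the latter. The thalamus score was added after the data had been seen.

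With single embryos left out, log2 fold changes relative to WT mice reached from -0.13 to 0.029 for Gabra3, -0.062 to 0.091 for Gabra5, -0.092 to 0.10 for Gabrg1, and -0.014 to 0.074 for Slc12a2 in Tbr1+/K228E mice. In Tbr1K228E/K228E mice they reached from -0.033 to 0.13 for Gabra3, -0.018 to 0.18 for Gabrg1, -0.045 to 0.049 for Gphn, -0.040 to 0.0079 for Slc12a2, and -0.085 to 0.12 for Slc12a5. For Gabra2 they reached from 0.022 to 0.36 in Tbr1+/K228E and 0.13 to 0.47 in Tbr1K228E/K228E mice, lowest without WT replicate 1 and highest without WT replicate 5, and for Slc12a5 from -0.23 to -0.033 in Tbr1+/K228E mice, nearest to 0 without Tbr1+/K228E replicate 2. Between the mutant genotypes they reached from -0.010 to 0.21 for Gabra2 and -0.087 to 0.00041 for Slc12a2. The difference in the log2 ratio of Slc12a5 to Slc12a2 reached from -0.29 to -0.019, -0.092 to 0.14, and 0.038 to 0.31 in the 3 comparisons.

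Of the listed pathway genes, Slc4a10 passed relative to WT mice in the first fit, and 0 genes passed with the replicate block and with the 2 genotypes alone, with 0 to 1 when embryos were left out. Relative to Tbr1+/K228E mice, 1 passed with the Hox score, with the 2 genotypes alone, and without Tbr1K228E/K228E replicate 1 (0 to 1 when embryos were left out). Relative to WT mice, Slc4a10 in Tbr1+/K228E mice reached from -0.053 to 0.13 when embryos were left out. Adjusted p values of Slc4a10 in Tbr1K228E/K228E mice relative to WT mice ranged from 0.00143 to 0.235 over the other settings (limma with Benjamini-Hochberg correction). Over all tested genes, 21 passed between Tbr1K228E/K228E and WT mice, against 43 with the empirical null, 12 with the 2 genotypes alone, and 12 to 21 when embryos were left out. Between the mutant genotypes 13 passed, against 0 with the empirical null, 21 with the Hox score, 2 with the replicate block, and 6 to 8 when embryos were left out. The cause of these changes was not tested. Embryos with the same replicate number are different animals. Between Tbr1K228E/K228E and WT mice, their deviations correlated at 0.357, 0.0238, 0.506, 0.158, and 0.169 in replicates 1 to 5. Values reached from -0.208 to 0.224 between Tbr1+/K228E and WT mice and from -0.232 to 0.349 between the mutant genotypes. No comparison had all pairs above 0.1, so the number was not taken as a pairing. In each genotype, replicates 1 to 3 were females and 4 and 5 males, so the replicate block cannot be told apart from sex. With the replicate block, 0 of the 8 genes passed, and 16 genes of the whole table passed between Tbr1K228E/K228E and WT mice. With 5 embryos per genotype, precision was lowest for Gabra2 and Slc12a5, and the deposited values hold no depth, so no limit from counting is given.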
